A study of Arabidopsis thaliana with 9 samples.

Results

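The transcriptome of wild-type Arabidopsis thaliana seedlings in red light was described on its own, as the level of every locus in the 3 libraries labelled Col-0, the reference accession. The seedlings were 4 d old, had been kept in constant red light of 94 μmol/m2/s and were extracted whole, and RNA was selected on oligo(dT) beads before library construction. The series holds 9 libraries from 3 genotypes, and the 6 libraries of bbx11-1 and pif4-2, grown in the same light, were not analysed here. The labels name no transgene, hormone or other agent for any group. The deposited tables list 33602 loci (33323 nuclear, 133 of the chloroplast and 146 of the mitochondrion), of which 25828 were above 0 in at least 1 Col-0 library and are described here.

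Red light acts on seedlings mainly through the photoreceptor phytochrome B. On first exposure, its active form binds and removes PIF transcription factors such as PIF4 within minutes. Under prolonged red light, as used here, the study describes PIF4 protein as accumulating again to a high level. Seedlings in red light open their cotyledons and build chloroplasts. Most chloroplast proteins are encoded in the nucleus, above all the chlorophyll a/b-binding antenna proteins and the small subunit of Rubisco, the enzyme that fixes CO2. The remaining chloroplast proteins are encoded in the chloroplast genome, so that both photosystems and Rubisco are assembled from products of both genomes.

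Levels are given as FPKM, the number of fragments scaled to transcript length and library size, so that levels of different loci can be set side by side. The study names the 3 libraries biological replicates without saying what was kept separate, so an SD over them measures the spread between these libraries, which may be technical in part. Since only 1 genotype in 1 condition is described, no test was made. Depth was inferred from the low FPKM values of short loci, which fell on steps of whole fragments when 1 FPKM on a transcript of 1 kilobase was taken as 16.8, 16.2 and 17.7 fragments in replicates 1, 2 and 3. There, 74.0%, 75.2% and 71.7% of the values were within 0.1 of a whole number, against a median of 13.0% to 14.3% over all depths scanned. Low loci thus rest on few fragments.

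Several of the most abundant transcripts come from near-identical copies, and the treatment of reads with several alignments is not given in the sources used here. The first 120 coding bases of copies that stand next to each other on a chromosome are therefore shown, in the TAIR10.1 reference. LHCB1.1, LHCB1.2 and LHCB1.3 encode the major antenna protein of photosystem II. Capitals mark bases that differ from LHCB1.3.
LHCB1.3 (chr1:10478071-10478190, plus strand): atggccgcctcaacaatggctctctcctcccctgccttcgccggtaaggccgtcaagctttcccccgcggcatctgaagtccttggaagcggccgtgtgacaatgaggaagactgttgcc
LHCB1.1 (chr1:10475773-10475892, minus strand): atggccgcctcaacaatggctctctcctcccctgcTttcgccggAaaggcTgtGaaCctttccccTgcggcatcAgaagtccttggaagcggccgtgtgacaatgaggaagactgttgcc
LHCB1.2 (chr1:10473127-10473246, minus strand): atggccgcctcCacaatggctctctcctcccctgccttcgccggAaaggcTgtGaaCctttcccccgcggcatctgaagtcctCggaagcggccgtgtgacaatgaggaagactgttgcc

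LHCB1.1 differed from LHCB1.3 at 7 of these 120 bases, and LHCB1.2 at 6. Over the whole coding length of 804 bases, LHCB1.3 was 96.1% identical to LHCB1.1 and 96.4% identical to LHCB1.2. The 3 small-subunit genes on chromosome 5 are shown in the same way, with capitals where a base differs from RBCS3B.
RBCS3B (chr5:15378187-15378306, minus strand): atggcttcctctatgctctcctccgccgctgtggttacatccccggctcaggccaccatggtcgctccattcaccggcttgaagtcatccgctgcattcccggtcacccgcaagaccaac
RBCS2B (chr5:15381859-15381978, minus strand): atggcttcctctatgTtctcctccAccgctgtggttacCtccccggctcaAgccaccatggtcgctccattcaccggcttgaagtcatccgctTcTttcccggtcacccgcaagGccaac
RBCS1B (chr5:15385036-15385155, minus strand): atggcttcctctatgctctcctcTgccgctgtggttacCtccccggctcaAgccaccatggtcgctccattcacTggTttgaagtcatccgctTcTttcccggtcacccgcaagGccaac

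RBCS2B and RBCS1B had 7 and 8 differences from RBCS3B in this stretch, and over 546 coding bases they were 97.3% identical to each other. Words of 50 bases give a measure of what a read can tell apart. A word was counted as found elsewhere when it occurred again anywhere in the genome, the same gene included. In LHCB1.3, 17.0% of the 50-base words of its exons were also found elsewhere in the genome, in LHCB1.1 20.5% and in LHCB1.2 10.6%. For RBCS3B, RBCS2B and RBCS1B the shares were 16.5%, 16.9% and 11.96%. Levels of these copies are uncertain to the extent that such reads were shared out or left out, and RBCS1A, with no such word, is free of this limit. Of the 123 members of the gene families described below, 98 had under 1% of such words elsewhere and 20 had 10% or more.

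The number of loci above 0 FPKM was 23800, 23598 and 23752 in replicates 1, 2 and 3, and 21952 loci were above 0 in all 3. Another 7774 loci were listed at 0 in all 3. At least 1 FPKM was reached by 18820, 18552 and 18867 loci, at least 100 FPKM by 1128, 1159 and 1133, and at least 1000 FPKM by 81, 79 and 76. Among loci above 0, the median level was 7.06, 6.73 and 7.20 FPKM.

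Expression was concentrated in few loci. The most abundant 1% of loci (336) held 44.7%, 44.6% and 41.6% of the summed FPKM, a mean of 43.6%. Among nuclear loci, the first 10 held 9.24% to 11.3% of nuclear FPKM, the first 100 held 27.1% to 29.8%, and the first 1000 held 56.7% to 59.5%. A share of 50% was reached with 545, 528 and 645 loci, and 90% with 7315, 7018 and 7572. Replicate 3 was the least concentrated library at each of these ranks.

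**Figure D1:**
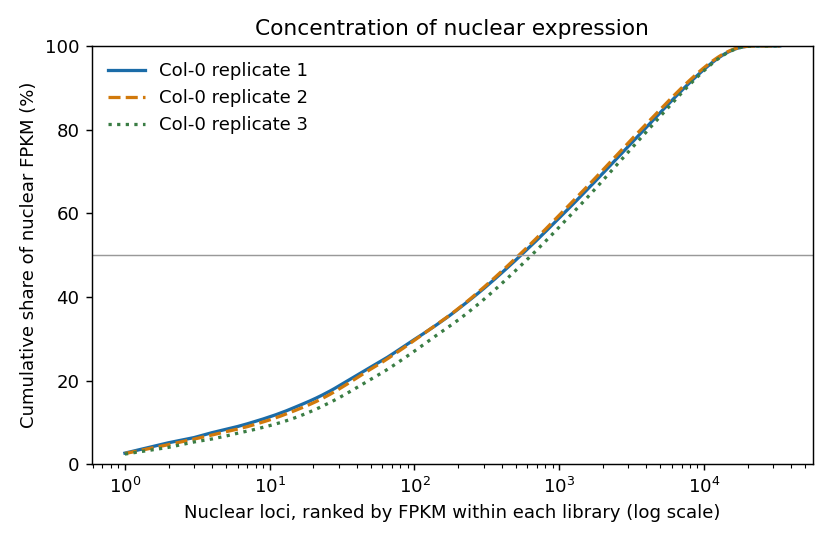
Cumulative share of nuclear FPKM (vertical axis, %) against the rank of nuclear loci by FPKM within each library (horizontal axis, log scale), with 1 line for each of the 3 Col-0 libraries and a grey line at 50%. The lines cross 50% at 545, 528 and 645 loci, and that of replicate 3 runs lowest.

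Protein-coding loci carried nearly all of it. The 26712 nuclear protein-coding loci held 99.2% to 99.4% of nuclear FPKM. Of these, 20975 were above 0 in all 3 libraries and 3572 were listed at 0 in all 3. The 343 nuclear loci with a ribosomal protein as their product name held 7.33%, 6.80% and 6.54% of nuclear FPKM, with a median of 86.4, 76.7 and 72.9 FPKM. Among loci of other types, the 18S ribosomal RNA locus AT3G41768 was highest with 1542, 1431 and 1168 FPKM, followed by the 5.8S ribosomal RNA locus AT3G41979 with 233.7, 179.2 and 175.2 FPKM. These values are those left after selection for poly(A), not the cell content of ribosomal RNA.

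Most of this expression came from loci above 10 FPKM. Loci with a mean of 1000 FPKM or more numbered 70 and held 25.1% of nuclear FPKM, those of 100 to under 1000 FPKM numbered 1037 and held 34.6%, and those of 10 to under 100 FPKM numbered 8518 and held 33.8%. The median exon length was 1292.5 bases in the first of these classes, 1370 bases in the second and 1774 bases in the third, against 1580 bases over all protein-coding loci. Loci listed at 0 were the shortest, with a median of 749.5 bases, and 35.4% of them had no intron, against 18.9% of all.

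Listings at 0 were most frequent among loci covered entirely by another and least frequent among loci covered in part. Of 215 protein-coding loci whose exons lie entirely inside exons of another deposited locus, 65 (30.2%) were listed at 0 in all 3 libraries, against 4.56% of 6338 loci covered in part and 16.0% of 20159 loci not covered. The metallothionein locus MT1A belonged to the entirely covered loci and was listed at 0. Whether fragments shared by overlapping loci were counted is not given in the sources used here, and its part in these listings was not tested.

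Motifs in the 250 bases before the annotated start were counted by abundance class. CACGTG, the G-box bound by bHLH and bZIP factors, was found in 14.3% of the 70 loci of 1000 FPKM or more, in 8.49% of those of 100 to under 1000 FPKM, in 2.86% of those listed at 0 and in 6.58% of all. GATAAG on either strand, the I-box of many light-regulated promoters, was found in 22.9%, 15.1%, 11% and 12.2% of the same 4 sets. TATAAA on the gene's strand, a TATA box sequence, was found in 28.6%, 31.2%, 40.2% and 33.3%. It did not change with level between 1 and 1000 FPKM. The classes starting at 1, 10 and 100 FPKM had 31.3%, 31.3% and 31.2%, and loci above 0 to under 1 FPKM had 35.5%. A match is a match of letters only.

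Photosynthesis led the list of nuclear transcripts. Lists of 13 Calvin cycle genes and 42 nuclear photosystem and antenna genes were used, and 9 of the 10, 22 of the 25 and 47 of the 100 most abundant nuclear loci belonged to these 55. The 3 loci of the first 25 outside them were DRT112, which encodes plastocyanin PETE2, the copper protein that carries electrons to photosystem I, THI1, an enzyme of thiamin synthesis, and CA1, the chloroplast carbonic anhydrase. Of the first 25 by mean, 20 were in the first 25 of every library.

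RBCS1A, a small subunit of Rubisco (TAIR10.1 chromosome 1, 25048158 to 25049667, minus strand), was the most abundant nuclear transcript, with 19400.4, 18752 and 17225 FPKM in replicates 1, 2 and 3. Its mean was 18459 ± 1117 FPKM (SD, n = 3), and it made up 2.44% to 2.66% of nuclear FPKM. LHCB1.3, listed as CAB1 (chromosome 1, 10477885 to 10479114, plus strand), followed with 18088, 15638 and 11296 FPKM. The order of the first and second locus was the same in all 3 libraries, but their distance was small in replicate 1 and wide in replicate 3. RBCS3B (chromosome 5, 15376988 to 15378642, minus strand) came next with 8999, 9712 and 9098 FPKM, and LHCB1.5, listed as LHB1B2 (chromosome 2, 14522524 to 14523568, minus strand), with 8634, 7177 and 4978 FPKM.

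Ranks 5 to 8 were taken by PSBR, a subunit of the oxygen-evolving side of photosystem II, with 5856, 5806 and 4653 FPKM, by RCA, the activase that restores inhibited Rubisco, with 4685, 4520.4 and 5142 FPKM, and by LHCB1.2 and LHCB1.1, listed as CAB3 and CAB2. LHCB1.2 had 4844, 4249 and 2590.2 FPKM. LHCB1.1 had 4419, 4278 and 2655 FPKM, so that LHCB1.2 was ahead of it in replicate 1 only. PETE2 was at 3191, 4039 and 3573 FPKM.

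The rest of the first 25 lay between 2319 and 3506 FPKM on average. It held the minor antenna LHCB5, the oxygen-evolving proteins PSBO1 and PSBP-1, the photosystem I antenna LHCA2, LHCA3 and LHCA4, the photosystem II antenna LHCB3, LHCB4.1 and LHCB6, the small photosystem II subunits PSBX and PSBW, the photosystem I subunits PSAF and PSAG, RBCS2B, THI1 and CA1. THI1 had the smallest distance between its libraries among the 25, with 2262.5, 2422 and 2409 FPKM. LHCB1.2 had the largest, its highest library being 1.87 times its lowest.

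**Figure D2:**
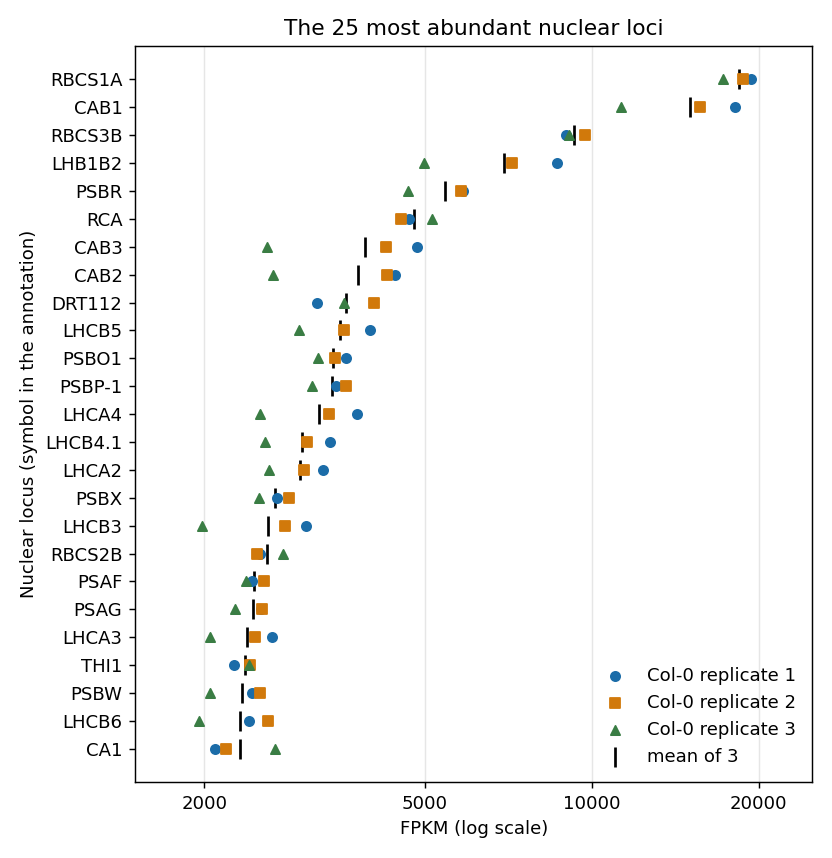
FPKM (horizontal axis, log scale) of the 25 nuclear loci with the highest mean, in order of the mean (vertical axis), with 1 symbol for each of the 3 Col-0 libraries and a bar at the mean. RBCS1A and CAB1 stand apart from the rest in replicates 1 and 2, and antenna loci such as CAB3 and LHCB3 are lowest in replicate 3.

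All 42 photosystem and antenna genes were above 0 in all 3 libraries. Their sum was 110604, 106373 and 84577 FPKM, or 15.2%, 14.5% and 11.97% of nuclear FPKM. Within them, the 5 LHCB1 genes summed to 38315, 33146 and 22875 FPKM, the 9 other LHCB genes to 16528, 16305 and 12817 FPKM, and the 6 LHCA genes of the photosystem I antenna to 12586, 11421 and 9141 FPKM. The 12 photosystem I subunits summed to 19803, 21181 and 18492 FPKM, and the 10 photosystem II subunits to 23371, 24320.7 and 21251 FPKM. Antenna transcripts were further down in replicate 3 than subunit transcripts, at 0.640 of the mean of replicates 1 and 2 for LHCB1 and at 0.902 for photosystem I subunits. Replicate 3 was the lowest library for 33 of the 42 genes, whereas it was the lowest for 23.2% of all 18631 nuclear loci with a mean of at least 1 FPKM. The 13 Calvin cycle genes had 3 members lowest in replicate 3. Their sum was 47750.1, 47336 and 46443 FPKM, or 6.53% ± 0.0595 (SD, n = 3) of nuclear FPKM, with little change between libraries. None of the 42 and none of the 13 genes had a highest library at least 2-fold above its lowest, which 2.65% of those 18631 loci had.

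Transcripts of the chloroplast genome made up 4.70%, 3.65% and 3.36% of the summed FPKM, and those of the mitochondrion 0.103%, 0.0653% and 0.0744%. Organelle transcripts mostly lack the long poly(A) tails of nuclear messages, so these are shares of poly(A)-selected libraries and not of the cell's RNA. Replicate 1 had the highest organelle share, and 98 of the 113 chloroplast loci with a mean of at least 1 FPKM were highest in it. This library was the highest for 39.8% of the 18631 nuclear loci with a mean of at least 1 FPKM. The annotation used here does not pair organelle loci with names. ATCG00220 led with 8768, 7598 and 5772 FPKM, which was 25.04% of the chloroplast sum, followed by ATCG01020 with 6175, 5310.2 and 4237 FPKM and ATCG00470 with 2915, 1777 and 1888 FPKM. These 3 loci held 50.3% of chloroplast FPKM. In the mitochondrion, 3 loci held 90.9%, namely ATMG00020 with 343.4, 194.2 and 205.3 FPKM, ATMG01390 with 192.8, 150.5 and 153.1 FPKM and ATMG00030 with 181.5, 111.0 and 134.8 FPKM. Only 20 of the 146 mitochondrial loci reached a mean of 1 FPKM, and 73 were listed at 0 in all 3 libraries.

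Gene families differed in how far 1 member led. Of 30 families with 123 members, 18 had a member with over 50% of the family's FPKM in every library. These were all 10 families of 2 members and 8 of the 20 larger ones. In a family of 2, 1 member exceeds 50% in any library unless both are equal. For these families the result is only that the same member led in all 3 libraries. The leading member was the same in all 3 libraries in 27 families, and the order of all members in 23.

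**Figure D3:**
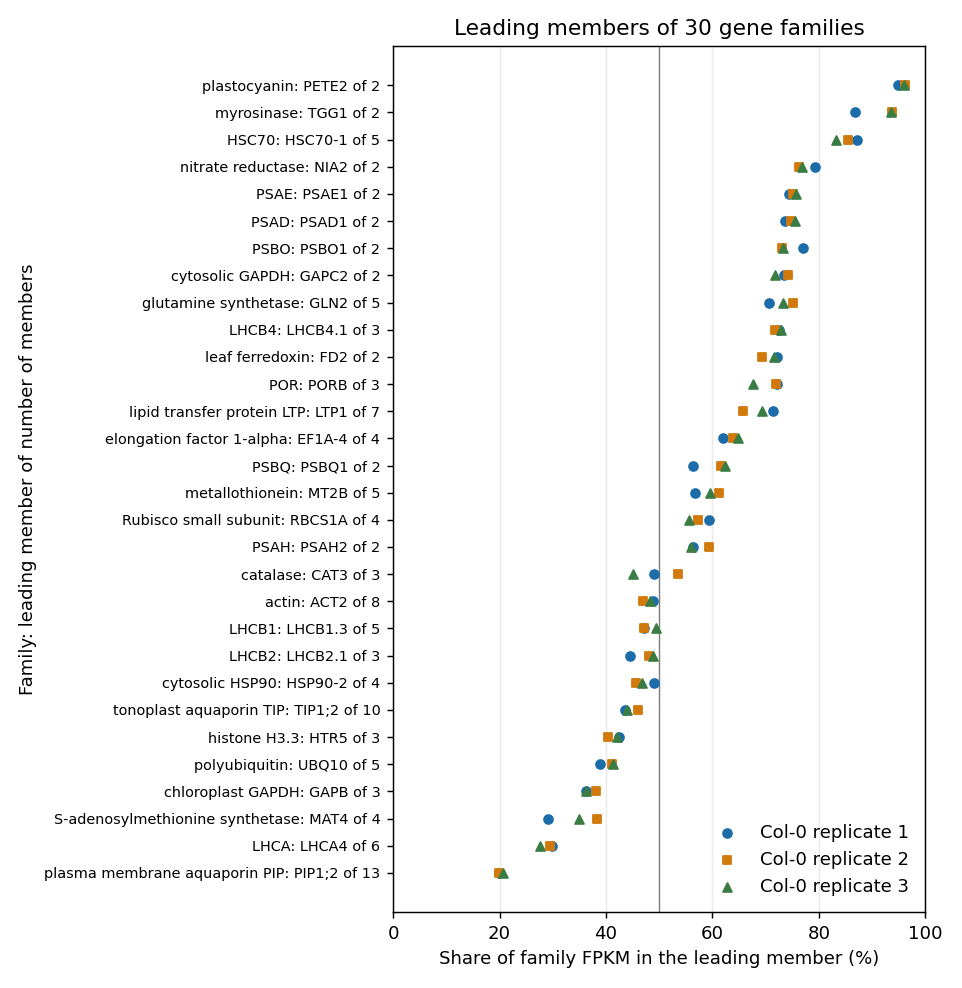
Share of the family's summed FPKM held by its leading member (horizontal axis, %) in 30 gene families (vertical axis, with the leading member and the number of members), with 1 symbol for each of the 3 Col-0 libraries and a line at 50%. Mean shares run from 20.1% for PIP1;2 among the plasma membrane aquaporins to 95.7% for PETE2 of plastocyanin.

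Among the photosynthetic families, RBCS1A held 59.3%, 57.3% and 55.5% of the small-subunit transcripts and RBCS1B, the lowest of the 4, between 5.42% and 6.18%. LHCB1.3 held 47.2%, 47.2% and 49.4% of LHCB1, with LHCB1.4 lowest at 5.44% to 6.08%. The shares within LHCB1 moved little while its sum differed between libraries. LHCB4.1 led the CP29 antenna with 71.7% to 72.9%, and LHCB4.3 had 46.2, 53.6 and 52.8 FPKM, or 0.995% to 1.5% of that family. LHCB2.1 held 44.5% to 48.8% of LHCB2, and LHCB2.3 was the lowest member with 305.9 to 348.7 FPKM. Of the 50-base words of LHCB2.1 and LHCB2.2, 23.5% and 29.5% were found elsewhere, so the order of these members is uncertain. LHCA4 and LHCA2 were close, with 3767, 3360.5 and 2524 FPKM and 3272, 3021 and 2618 FPKM, and LHCA2 was ahead in replicate 3 only. LHCA6, which joins photosystem I to the NDH complex, was lowest with 131.7 to 151.4 FPKM.

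In the 2-member families of the photosystems, PSBO1 held 73.0% to 77.0% over PSBO2, PSAD1 73.6% to 75.5% over PSAD2, and PSAE1 74.4% to 75.7% over PSAE2. The members were nearer to each other in PSAH, where PSAH2 held 56.0% to 59.3% over PSAH1, and in PSBQ, where PSBQ1 held 56.3% to 62.4% over PSBQ2. The exons of PSAH1 overlap another locus over 53.3% of their length, and whether fragments were counted by strand is not stated. By FPKM times exon length, PSAH1 led in place of PSAH2. The electron carriers differed more, with 94.9% to 96.2% for PETE2 over PETE1 and 69.3% to 72.1% for ferredoxin FD2 over FD1.

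Protochlorophyllide oxidoreductase, which needs light to make chlorophyllide, was carried by PORB with 276.6, 297.5 and 274.3 FPKM and by PORC with 106.3, 114.9 and 129.8 FPKM. PORA, the form known from dark-grown seedlings, was at 0.44, 1.15 and 1.36 FPKM. Chloroplast GAPDH, an enzyme of the Calvin cycle, was shared almost evenly, with 36.2% to 38.2% for GAPB and 27.5% to 28.4% for GAPA2, the lowest of 3. Cytosolic GAPDH of glycolysis was led by GAPC2 with 71.8% to 74.3% over GAPC1.

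In nitrogen assimilation, the plastid glutamine synthetase GLN2 held 70.7%, 75.1% and 73.2% of its family with 989.3, 1330.0 and 1346 FPKM, and the cytosolic GLN1;4 was lowest with 0.88 to 1.07 FPKM. NIA2 held 76.3% to 79.3% of nitrate reductase over NIA1. In S-adenosylmethionine synthetase, which makes the methyl donor of the cell, the lead changed between libraries, with SAM1 ahead in replicate 1 at 367.0 FPKM and MAT4 ahead in replicates 2 and 3 at 445.9 and 386.6 FPKM, while MAT3 was the lowest member on average. Catalase also changed its leading member, since CAT3 led with 675.8 and 771.9 FPKM in replicates 1 and 2 and CAT2 with 890.0 FPKM in replicate 3. CAT1 was the lowest catalase with 27.6 to 33.6 FPKM.

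Water channels were spread widely. Among 13 plasma membrane aquaporins, PIP1;2 led with 658.3, 819.2 and 827.4 FPKM, only 19.8% to 20.7% of the family, and PIP2;5 was lowest with 5.37 to 7.97 FPKM. Among 10 tonoplast aquaporins, TIP1;2 led with 1011, 1613 and 1473 FPKM and TIP2;1 was next with 546.3, 1057 and 915.4 FPKM. TIP5;1, known from pollen, was listed at 0 in all 3 libraries, and the seed form TIP3;1 had 2.70, 5.59 and 7.03 FPKM. Summed tonoplast aquaporins were lowest in replicate 1, with 2322 FPKM in it and 3499.6 and 3348 FPKM in replicates 2 and 3.

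Families of general cell functions had close values in the 3 libraries. ACT2 held 47.0% to 48.8% of actin, with ACT7 and ACT8 between 194.4 and 228.2 FPKM, and the pollen actin ACT12 was listed at 0 in all 3 libraries. EF1A-4 held 62.1% to 64.9% of elongation factor 1-alpha and EF1A-3 was lowest with 7.59% to 8.78%, but 44.6% to 67.2% of the 50-base words of the other 3 members were found elsewhere in the genome, so their levels are uncertain. UBQ10 held 39.0% to 41.4% of polyubiquitin, whose repeats also recur within a gene, and UBQ4 was lowest with 32.6 to 39.3 FPKM. HTR5 held 40.3% to 42.5% of histone H3.3, and HTR4 was lowest on average.

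Chaperones of the cytosol also had 1 or 2 leading members. HSC70-1 had 1195, 997.6 and 983.1 FPKM and held 83.3% to 87.2% of its family, while HSP70-5 was lowest with 2.4 to 2.86 FPKM. HSP90-2 and HSP90-3 were close, with 153.7, 135.6 and 156.0 FPKM and 134.5, 134.1 and 145.2 FPKM, and HSP90-1 was lowest with 10.6 to 15.3 FPKM. Of the 50-base words of HSP90-2 and HSP90-3, 18.9% and 24.8% were found elsewhere, so their order is uncertain. None of 9 heat-inducible genes, small heat shock proteins and HSP101 among them, exceeded 5.73 FPKM in any library.

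Among small secreted and metal-binding proteins, LTP1 held 65.8% to 71.3% of lipid transfer proteins with 1189, 1597 and 1371 FPKM, and LTP12, the lowest, was listed at 0 in replicates 1 and 2. LTP5 was 2-fold apart between libraries, with 124.7, 304.4 and 201.2 FPKM. MT2B held 56.7% to 61.3% of metallothionein with 1996, 2294 and 1742 FPKM. The myrosinase TGG1, which hydrolyses glucosinolates, held 86.8%, 93.8% and 93.6% over TGG2.

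Cell type markers were read to check the label of whole seedlings. The 4 mesophyll markers RBCS1A, LHCB1.1, LHCB2.1 and CA1 summed to 26992, 26698 and 23727 FPKM. Vascular and root markers were present at lower levels, with 76.1, 76.0 and 77.6 FPKM for SUC2, the sucrose carrier of phloem companion cells, and 37.4, 34.9 and 42.0 FPKM for CASP1 of the root endodermis. The 5 root hair markers summed to 23.2, 25.02 and 41.8 FPKM. The 4 shoot meristem markers summed to 14.7, 12.2 and 14.1 FPKM. Most of this came from KNAT1, while STM had 2.01 to 2.38 FPKM and WUS 0.05 to 0.15 FPKM. The 2 root meristem markers summed to 1.73 to 2.25 FPKM, with 1.07 to 1.57 FPKM for WOX5. Of the 5 flower markers, which a seedling should lack, AP1 was listed at 0 in all 3 libraries, AP3 and AG stayed at or under 0.06 FPKM, PI at or under 0.56 FPKM, and SEP3 had 2.43 to 4.38 FPKM. Seed storage transcripts were low, with 17.39, 29.1 and 35.0 FPKM for the cruciferin CRA1 and at most 0.45 FPKM for the albumins SESA1 to SESA5. In whole seedlings, fewer cells of a type and less RNA per cell cannot be told apart.

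The genes the study is about were all present. PHYB, the red-light receptor, had 20.7, 19.0 and 23.9 FPKM, and PIF4 had 35.2, 30.2 and 25.7 FPKM. BBX11, a B-box zinc finger protein (chromosome 2, 19607996 to 19610287), had 15.7, 16.4 and 78.2 FPKM. Replicates 1 and 2 were alike for BBX11 and replicate 3 stood apart, at 4.85 times the lowest library once 0.5 is added to each value. Neighbouring loci were not high in that library, with 20.8, 18.1 and 19.1 FPKM for AT2G47900, 1.13, 1.63 and 0.81 FPKM for AT2G47895 and 4.19, 1.66 and 2.13 FPKM for AT2G47880. The mean of BBX11 in Col-0, 36.8 ± 35.9 FPKM (SD, n = 3), rests on this library, and whether its label is right was not tested here.

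The spread among the 3 libraries was measured on log2(FPKM + 0.5) over the 18631 nuclear loci with a mean of at least 1 FPKM. The pseudocount understates the change of low loci. The median SD of a locus was 0.15, its median coefficient of variation was 10.9%, and Pearson's r across loci, which are not independent replicates, was 0.982 between replicates 1 and 2, 0.983 between 1 and 3 and 0.989 between 2 and 3. The highest library was at least 2-fold above the lowest at 494 loci, which is 2.65% of the loci examined. Without replicate 1 this count was 138 and without replicates 2 and 3 it was 252 and 314.

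Much of this lay at low counts. Of the 328 loci with an approximate mean under 20 fragments 38.7% were 2-fold apart, of the 3372 loci with 20 to under 100 fragments 6.32%, and of the 14912 loci with 100 or more 1.03%. These fragment numbers rest on annotated exon lengths and are approximate, since they summed to 116% to 117% of the depth. By type, 86.7% of 15 tRNA loci, 56.4% of 39 snoRNA loci and 51.1% of 45 miRNA loci were 2-fold apart, against 2.29% of 18205 protein-coding loci. Most mature products of these classes carry no long poly(A) tail.

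For each of the 494 loci, the library farthest from the middle value was taken as the one that stood apart. It was replicate 1 and low at 200 loci, replicate 1 and high at 67, replicate 2 and low at 98, replicate 2 and high at 45, replicate 3 and low at 43, and replicate 3 and high at 41. Among the 9697 loci with a mean of at least 10 FPKM, 89 (0.918%) were 2-fold apart and 65 of these were low in replicate 1. Variable loci of this level were thus mostly lower in replicate 1 than in the other libraries, although some stayed abundant there, such as TGG1.

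**Figure D4:**
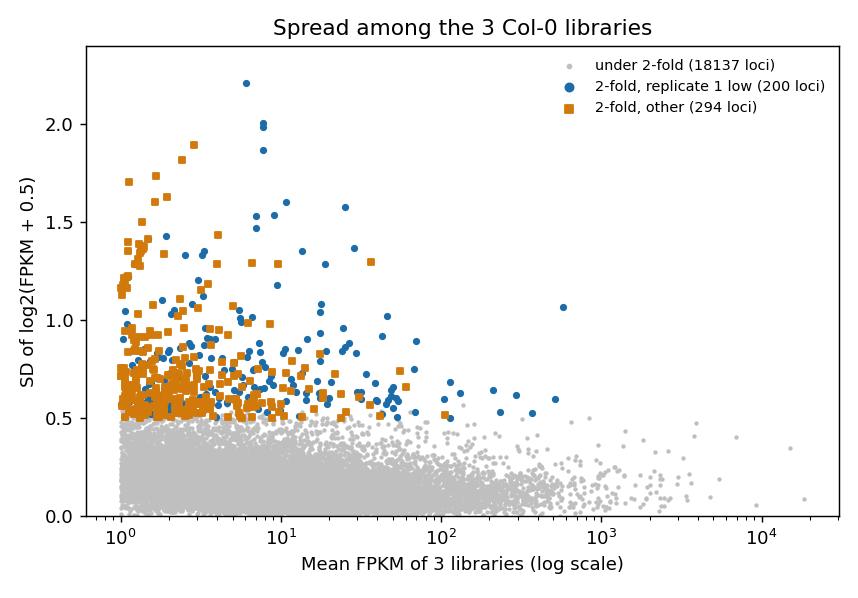
SD of log2(FPKM + 0.5) over the 3 Col-0 libraries (vertical axis) against mean FPKM (horizontal axis, log scale) for 18631 nuclear loci with a mean of at least 1 FPKM. Blue points are the 200 loci that are 2-fold apart with replicate 1 low, orange squares the other 2-fold loci, and grey points the loci under 2-fold; among loci above 10 FPKM the coloured points are mostly blue.

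Of the 12 loci with the largest SD among those with a mean of at least 10 FPKM, 11 were low in replicate 1, and the exception was BBX11. LAC11, a laccase that polymerizes lignin, had 1.82, 13.1 and 17.5 FPKM. TED6, a membrane protein of differentiating xylem vessel cells, had 4.84, 34.8 and 35.4 FPKM. AT1G33811, a GDSL-type lipase, had 7.21, 41.2 and 37.7 FPKM. In each case replicates 2 and 3 were close to each other and replicate 1 lay far under them. Replicate 1 was likewise the lowest for DMP2 with 3.29, 17.6 and 19.7 FPKM, for the mannose-binding lectin AT1G52070 with 5.19, 20.3 and 31.0 FPKM, for the germin-like proteins GLP10 with 6.07, 25.5 and 21.6 FPKM and GL22 with 6.30, 20.9 and 25.4 FPKM, for the LEA-like protein AT5G54370 with 9.84, 26.6 and 36.6 FPKM, and for AT5G25840, of unknown function, with 7.22, 25.6 and 20.2 FPKM. TGG1 was the most abundant of the 12, with 209.7, 724.8 and 788.0 FPKM, and XCP2, a cysteine protease of dying vessel cells, had 17.4, 57.1 and 64.1 FPKM.

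Tracheary elements are the water-conducting cells of xylem, which lay down a secondary wall of cellulose and lignin and then digest their own contents. A list of 20 genes of this pathway was put together after the values had been seen, so that its counts are a description only. Of these 20, 18 had a mean of at least 1 FPKM, all 18 were lowest in replicate 1, against 31.8% of all loci examined, and 16 were 2-fold apart, against 2.65%. All 20 summed to 78.5 FPKM in replicate 1 and 258.2 and 293.3 FPKM in replicates 2 and 3.

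The distances differed widely within the list. They were widest for TED7 and RNS3. TED7 had 0.60, 8.86 and 13.9 FPKM, the ribonuclease RNS3 had 0.56, 9.79 and 12.8 FPKM, and the metacaspase MC9, which clears the dying cell, had 1.60, 11.4 and 14.2 FPKM. The proteases XCP1 and XSP1 had 11.6, 32.6 and 35.8 FPKM and 3.01, 8.63 and 10.4 FPKM. LAC11, given above, was also among the widest. The secondary wall cellulose synthases CESA4, CESA7 and CESA8 had 5.02, 9.85 and 11.1 FPKM, 3.85, 7.74 and 8.43 FPKM, and 2.99, 6.69 and 7.79 FPKM. The laccases LAC4 and LAC17 had 5.88, 13.9 and 14.7 FPKM and 3.59, 8.12 and 11.3 FPKM.

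The regulators at the head of the pathway were low in all 3 libraries. VND6, a NAC factor that starts vessel formation, had 1.35, 1.41 and 1.55 FPKM, values close to each other, and VND7 had 0.60, 1.05 and 1.01 FPKM. MYB46, a regulator of wall genes under them, had 0.69, 1.61 and 1.87 FPKM, and MYB83 had 0.73, 1.17 and 0.74 FPKM.

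The tracheary-element-regulating element, spelled CTTNAAAGCNA where N is any base, is a motif known from promoters of genes active in these cells. It was searched on both strands in the 250 bases before the annotated start. Matches were found in 4 of the 20 listed loci (20%), against 101 of all 26712 nuclear protein-coding loci (0.378%). Because the motif is known from genes of this kind, a higher share in the list could be foreseen. Any link of the motif to the low values of replicate 1 was not tested. The 4 windows are shown 5′ to 3′ along the gene's strand, in the TAIR10.1 build, with the match in capitals, because these loci belong to the set that was low in replicate 1.
XCP1 (chr4:16810232-16810481, plus strand): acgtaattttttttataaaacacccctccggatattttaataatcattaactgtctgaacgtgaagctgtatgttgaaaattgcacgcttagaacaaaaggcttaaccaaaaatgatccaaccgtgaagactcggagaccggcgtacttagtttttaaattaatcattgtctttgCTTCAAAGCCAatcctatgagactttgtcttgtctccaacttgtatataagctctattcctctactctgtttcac
XSP1 (chr4:93493-93742, plus strand): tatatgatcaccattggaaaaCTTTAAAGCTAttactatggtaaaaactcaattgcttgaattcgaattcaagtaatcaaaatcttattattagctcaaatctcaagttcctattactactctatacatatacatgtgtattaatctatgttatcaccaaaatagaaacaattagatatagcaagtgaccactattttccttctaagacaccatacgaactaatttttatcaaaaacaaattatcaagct
MC9 (chr5:1153490-1153739, plus strand): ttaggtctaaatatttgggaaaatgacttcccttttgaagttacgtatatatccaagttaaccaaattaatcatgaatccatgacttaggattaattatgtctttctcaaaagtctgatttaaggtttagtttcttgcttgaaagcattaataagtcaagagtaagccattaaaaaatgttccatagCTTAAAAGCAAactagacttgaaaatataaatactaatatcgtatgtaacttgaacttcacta
CESA4 (chr5:17714140-17714389, plus strand): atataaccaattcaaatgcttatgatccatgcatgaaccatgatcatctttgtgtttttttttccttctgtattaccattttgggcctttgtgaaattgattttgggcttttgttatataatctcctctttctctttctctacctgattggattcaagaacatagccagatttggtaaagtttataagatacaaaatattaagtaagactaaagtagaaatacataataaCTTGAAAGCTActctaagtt

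All 4 matches lay on the gene's strand, starting 75 bases before the annotated start in XCP1, 229 in XSP1, 63 in MC9 and 20 in CESA4. Each window held 1 match. The other 16 listed loci, among them TED6, LAC11 and XCP2, held no match in this window.

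Genes of the myrosinase system, which releases toxic isothiocyanates from glucosinolates when tissue is wounded, were also lowest in replicate 1, all 6 of them, against 31.8% of all loci. This list was likewise put together after the values had been seen, and 5 of its 6 members were 2-fold apart, against 2.65% of all loci. The beta-glucosidases BGLU34 and BGLU35 had 0.17, 6.74 and 11.2 FPKM and 0.76, 7.62 and 14.8 FPKM, although 25.04% and 23.3% of their 50-base words occur elsewhere in the genome. The myrosinase-binding protein MLP-300B had 1.2, 6.74 and 13.0 FPKM. FAMA, the bHLH factor that makes guard cells and the myrosin cells in which TGG1 is stored, had 2.79, 6.81 and 7.58 FPKM. TGG2 had 32.0, 47.8 and 54.0 FPKM and was under 2-fold.

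All 5 guard cell lineage markers and all 3 genes of reserve mobilization were lowest in replicate 1, against 31.8% of all loci examined. Of these genes FAMA alone was 2-fold apart, against 2.65% of all loci. MYB60 of guard cells had 3.09, 5.21 and 6.38 FPKM, whereas the earlier stomatal genes SPCH and TMM had 3.23, 3.83 and 3.48 FPKM and 5.23, 6.83 and 5.72 FPKM. Isocitrate lyase ICL and malate synthase MLS of the glyoxylate cycle, through which seed oil is turned to sugar, had 79.9, 129.7 and 119.3 FPKM and 10.8, 20.5 and 17.6 FPKM. Of 5 seed storage and oil body genes averaging 1 FPKM or more, 3 were lowest in replicate 1, while CRU3 with 1.90, 3.57 and 1.87 FPKM and EM6 with 4.44, 3.13 and 5.23 FPKM were not. The 4 epidermis markers were divided. FDH, an enzyme of very-long-chain fatty acid synthesis, had 96.2, 171.3 and 165.1 FPKM and ATML1 had 26.7, 32.0 and 35.1 FPKM, both lowest in replicate 1, whereas CER1 with 16.3, 11.5 and 12.6 FPKM and GL2 with 3.60, 3.47 and 2.82 FPKM were highest in it. The chloroplast share was highest in the same library, with 4.70%, 3.65% and 3.36%, and its part in these differences was not tested.

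Touch and wound response genes were mostly highest in replicate 2. Of 26 listed genes, 24 had a mean of at least 1 FPKM, and 20 of the 24 were highest in replicate 2, which was the highest library for 19.6% of all loci examined. Of the 24, 19 were lowest in replicate 1, which was the lowest library for 31.8% of all loci, and 2 (8.33%) were 2-fold apart, against 2.65% of all. These 2 were the calmodulin-like TCH3 with 72.5, 148.1 and 95.8 FPKM and PHI-1 with 11.6, 25.8 and 20.5 FPKM. TCH4, a wall-loosening enzyme, had 57.0, 110.2 and 71.5 FPKM, and the ethylene response factor ERF6 had 22.1, 37.8 and 23.5 FPKM. ZAT12 and JAZ1 had 14.4, 13.9 and 15.4 FPKM and 14.6, 15.9 and 17.4 FPKM and did not follow. The tandem genes AZI1, EARLI1, AT4G12490 and AT4G12500, which encode small proline-rich lipid transfer-like proteins and were grouped after their values were seen, were also highest in replicate 2, and all 4 were 2-fold apart, against 2.65% of all loci. AZI1 had 33.6, 90.7 and 42.8 FPKM and EARLI1 had 42.0, 95.9 and 44.4 FPKM.

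A set of root hair and extensin genes was highest in replicate 3. A list of 6, grouped after the values were seen and all 2-fold apart, against 2.65% of all loci, summed to 44.5, 48.0 and 97.8 FPKM. The proline-rich protein PRP3 of root hairs had 9.74, 11.8 and 23.5 FPKM, and the extensin EXT13 had 8.05, 6.80 and 15.0 FPKM. The extensin-like AT3G54580 had 12.6, 14.4 and 28.1 FPKM. Of its 50-base words 30.1% recurred in the genome, and repeats within the gene were not kept apart. The further root hair markers COBL9, EXPA7, EXPA18 and RHD6 were highest in replicate 3 as well but under 2-fold. EXPA18, for example, had 5.35, 6.27 and 8.66 FPKM. Replicate 3 was the highest library for 40.5% of all loci examined.

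**Figure D5:**
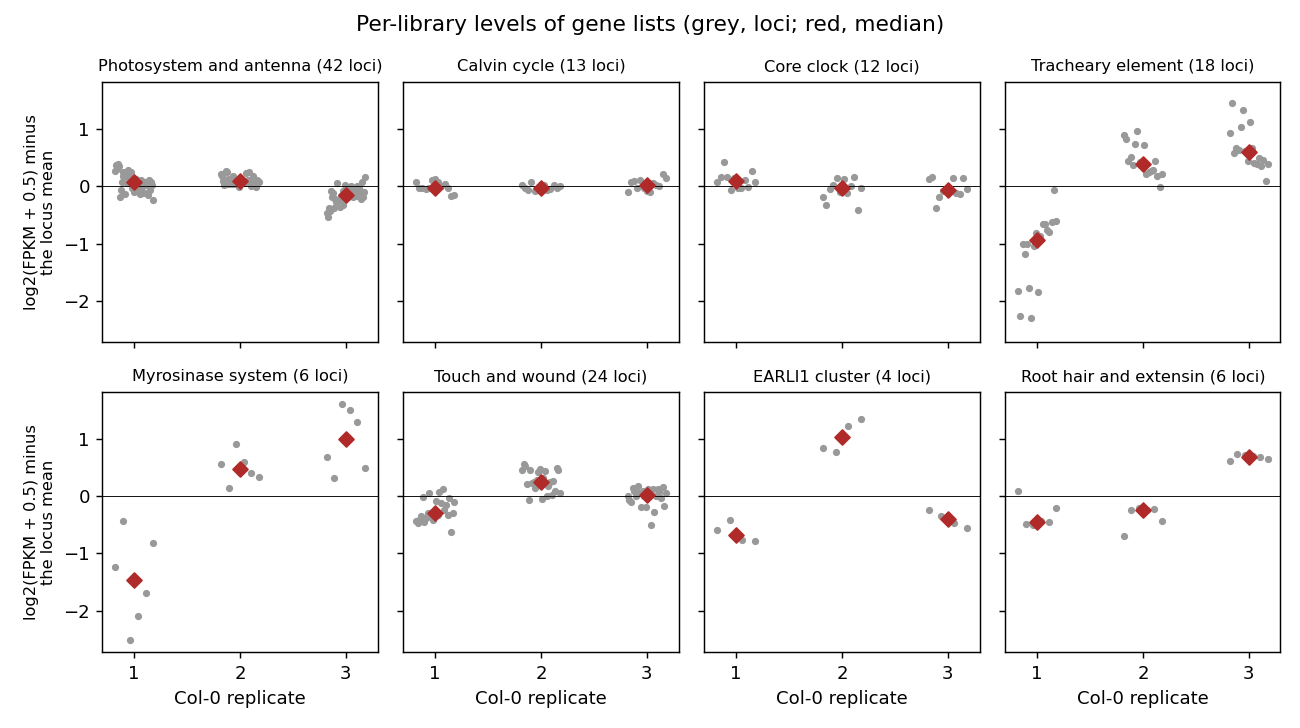
Level of each locus relative to its own mean (vertical axis, difference on log2(FPKM + 0.5)) in the 3 Col-0 libraries (horizontal axis) for 8 gene lists, with grey points for loci with a mean of at least 1 FPKM and red diamonds for the median. Tracheary element and myrosinase genes are low in replicate 1, the EARLI1 cluster is high in replicate 2, and Calvin cycle genes stay near 0.

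The smallest spreads are given next, picked by SD from 9697 loci, so their closeness is no separate sign of stable expression. The 5 with the smallest SD among loci with a mean of at least 10 FPKM were BS14A, a protein of vesicle fusion, with 25.3, 25.4 and 25.4 FPKM, TRX3, a cytosolic thioredoxin, with 555.6, 554.0 and 554.0 FPKM, the Golgi complex protein AT5G11980 with 13.8, 13.8 and 13.7 FPKM, the receptor-like kinase locus listed as RLK with 10.09, 10.11 and 10.07 FPKM, and the ankyrin repeat protein AT3G04470 with 23.86, 23.97 and 23.93 FPKM. Of 9 genes in use as references for RT-qPCR, none was 2-fold apart, a count near the 2.65% of all loci. Among them were UBC9 with 93.0, 95.02 and 89.4 FPKM, UBC21 with 18.4, 18.2 and 19.8 FPKM, and PP2AA3 with 27.7, 31.9 and 33.3 FPKM.

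Of the 12 clock genes none was 2-fold apart, against 2.65% of all loci examined, and their median SD on log2(FPKM + 0.5) was 0.14, against 0.15 over all. CCA1 and LHY of the morning had 27.4, 22.9 and 28.4 FPKM and 33.3, 23.7 and 33.6 FPKM, while TOC1 of the evening had 34.2, 28.8 and 29.8 FPKM. The widest of them was PRR9 with 3.3, 2.24 and 1.69 FPKM, but 41.1% of its 50-base words were found elsewhere, so its level is uncertain. TOC1 was above CCA1 in every library, and LHY overlapped both.

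Pathways that answer stress or nutrients were low to moderate. CHS, the first enzyme of flavonoid synthesis, had 62.3, 66.3 and 77.3 FPKM, whereas the anthocyanin regulator PAP1 had 1.1, 0.74 and 0.86 FPKM. None of the 7 members of that list averaging 1 FPKM or more was 2-fold apart, a count near the 2.65% of all loci. The ferritin FER1, which stores iron, had 221.1, 155.0 and 223.3 FPKM and led a list of 8 iron genes, in which the uptake carrier IRT1 had 13.9, 21.6 and 22.2 FPKM and the reductase FRO2 had 2.57, 2.63 and 4.53 FPKM. Defence markers were near the floor, with 0.77, 0.08 and 0.22 FPKM for PR1 and 0.13, 1.41 and 0 FPKM for PDF1.2A, while VSP2 led this list with 11.9, 18.8 and 21.5 FPKM. OLEO1, an oil body protein, had 0.97, 1.83 and 3.02 FPKM. Of the 5 seed storage and oil body genes averaging 1 FPKM or more, it alone was 2-fold apart, against 2.65% of all loci.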

How the data were processed

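Whole seedlings were extracted, poly(A) RNA was selected and libraries were sequenced. Per the labels, reads were aligned with HISAT2 to TAIR10 and edgeR 3.0.8 was used by the authors. The study's methods name HTSeq for the raw read counts. The authors deposited 1 table of FPKM values per library, written to 2 decimals. The step from counts to FPKM, the lengths used, the strand setting and the treatment of multiply aligned reads are not given in the sources used here, and each of them could move levels of short, overlapping or duplicated loci.

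From the deposited FPKM, means and SDs over the 3 Col-0 libraries were computed with Python 3.11.15, pandas 2.3.3, numpy 2.4.6 and scipy 1.17.1, and figures were drawn with matplotlib 3.10.9. The 6 libraries of the mutants were not used. No test was made, since 1 group is described. Depth was estimated from low values of loci with at most 600 exon bases as the depth at which most were whole fragments, so it is an inference and not a deposited value. Spread was measured as the SD of log2(FPKM + 0.5) over nuclear loci with a mean of at least 1 FPKM, and a locus was counted as varied when its highest library was at least 2-fold above its lowest on that scale. The script was tested on simulated data.

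Names, types, exons and sequences came from RefSeq's annotation of TAIR10.1, which had an entry for 32835 of the 33602 loci (488 nuclear and 279 organelle loci had none). Motifs were searched in 250 bases before the annotated start, and words of 50 bases were looked up in the whole genome.

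Named loci were the 25 most abundant nuclear loci, the 3 most abundant loci of each organelle genome, the leading and the lowest members of each family, list members that led or were 2-fold apart with further members as examples, the 12 loci with the largest and 5 with the smallest SD among those with a mean of at least 10 FPKM, and BBX11, PIF4 and PHYB. The members and lists were chosen with earlier results of these data known, and the tracheary element, myrosinase, root hair and extensin, EARLI1 and BBX11 neighbour lists after their values had been seen. Alternatives were weighting by exon length, another pseudocount, level minimum, fold, scaling or window, the median of the libraries, and leaving out each library.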

Additional observations from a re-analysis of the deposited data

How the results depend on the processing

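No paired analysis was possible because 1 genotype was described and no test was made. Each locus was weighted by exon length (FPKM times length, close to the share of fragments). The most abundant 1% of loci then held 38.5%, against 43.6%. However, 38.5% is over nuclear loci with an annotated length, while 43.6% includes the organelle loci. These values thus differ in their loci as well as in the weighting. The 100 most abundant nuclear loci held 25.4%, against 28.9%. The photosystem and antenna list held 10.07%, against 13.9%, and the Calvin cycle list 6.18%, against 6.53%. Under the same weighting 19 of the 25 most abundant nuclear loci stayed among the first 25, 28 of 30 families kept their leading member, the exceptions being LHCA and PSAH, and 19 families, against 18, had a member over 50%. Without the most abundant locus of each organelle genome, an alternative chosen after seeing the data, the organelle share was 3.01%, against 3.99%. In the 100 bases before the start, TATAAA was found in 15.7% of the loci of 1000 FPKM or more and in 18.1% of all. In 250 bases these shares were 28.6% and 33.3%, and a shorter window cannot hold more matches. The count of loci 2-fold apart was the value that moved most. It was 758 with a pseudocount of 0.1, 165 with a mean of at least 5 FPKM, 886 with any value above 0, 2193 at 1.5-fold and 125 at 3-fold, against 494. It was 341 with a pseudocount of 1 and 498 with median-of-ratios scaling. It was 138 to 314 with 1 library left out, lowest without replicate 1. Leaving out a library also compares fewer values per locus. A share averaged over the remaining libraries always lies within 1 SD of the mean over all 3. Leaving out a library therefore does not test the shares. Of the counts, 22 to 24 of the 25 most abundant nuclear loci stayed, and 18 families had a member over 50% each time. Weighting of the organelle share by length or by coding loci was not run, since the annotation used here gives organelle loci neither a length nor a type. Depth limits the low end, as 38.7% of the loci under 20 estimated fragments were 2-fold apart.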

Other observations

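Among the 40 most abundant nuclear loci, 3 loci outside photosynthesis and primary plastid metabolism stood beside the photosystem genes. GRP3S, a glycine-rich protein, had 2256, 2319 and 1979 FPKM, PYK10, a beta-glucosidase of the ER bodies of seedlings and roots, had 1762, 2360.2 and 2298 FPKM, and the metallothionein MT2B had 1996, 2294 and 1742 FPKM. PYK10 was lowest in replicate 1 and the other 2 were lowest in replicate 3. PSBTN, a small subunit of photosystem II that was not in the list used, had 1724, 1820.1 and 1709.9 FPKM.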
